A study of Mus musculus with 9 samples.

Results

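The potassium channel subunits described here were the mouse protein-coding genes whose symbols begin with *Kcne*, *Kcnf*, *Kcng*, *Kcnh*, *Kcnip*, *Kcnj*, *Kcnk*, *Kcnma*, *Kcnmb*, *Kcnn*, *Kcnq*, *Kcns*, *Kcnt* or *Kcnv*. This choice by symbol used no measured value but was made with earlier results of these data known. It took 72 of the 21254 protein-coding genes that had a transcript in the count table. They were followed in a RIP-seq experiment on CELF2, an RNA-binding protein, in which an antibody pulls the protein out of a lysate and the RNA that comes with it is sequenced. The question was which mRNAs came down with CELF2 in the cytoplasm. The source of all 9 libraries was cytoplasm prepared from the cortex of *Celf2* KI mice on postnatal day 0, heterozygous for an allele that encodes CELF2 p.R493H. The 3 CELF2-KI RIPs used 10 µg of rabbit antibody to CELF2 for 3 hours, the 3 IgG RIPs used the same amount of normal rabbit IgG for the same time, and the 3 input samples were aliquots kept before any antibody was added. Mice without the KI allele were not analysed here, so the values compare RNA fractions of 1 genotype. The labels call the 3 libraries of a condition biological replicates, and the number of mice behind each was not given in the sources used here.

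Potassium channels let potassium ions leave a neuron or glial cell, which sets the resting voltage and ends electrical signals. The groups covered here work in different ways: inward rectifiers and two-pore channels hold the resting voltage, KCNQ and EAG-type channels open with voltage and damp repeated firing, and others open with calcium or sodium inside the cell. The remaining members form no channel alone but change the behaviour of other channel subunits. Mutations in several of these genes are known causes of inherited epilepsy.

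Levels are given as CPM, a gene's share of the protein-coding counts of its library, scaled between libraries by TMM, and are compared between libraries of the same gene only. A gene was called higher or lower where edgeR's quasi-likelihood test gave a Benjamini-Hochberg FDR under 0.01 over all 15267 genes tested and the estimated change was at least 2-fold. Changes are log2 fold changes with their standard error (SE), FDR is that adjusted p throughout, and positions are from GRCm38.p6. Protein-coding genes held 13523208 to 16840312 counts in CELF2-KI RIP, 9347321 to 14965243 in IgG RIP and 55250740 to 78514685 in input. The share of a library's counts on 45S ribosomal RNA and on transcripts without a gene in the reference table was 43.5% and 41.5% in IgG RIP replicates 1 and 2, 21.1% in replicate 3, and between 9.24% and 12.6% elsewhere. The lowest level that a library could show, taken as 3 counts, lay between 0.0331 and 0.297 CPM. Summed neuronal markers measured 2894 to 3355 CPM in CELF2-KI RIP, 1326 to 1852 in IgG RIP and 2596 to 2883 in input. *Tubb3* alone had a mean of 1893 CPM in CELF2-KI RIP, and the 7 markers did not share a direction. Their log2 fold changes were above 0 for 5 and below for 2 over IgG RIP, and above for 4 and below for 3 over input. Of the markers tested, called against both controls were 1 of 7 neuronal markers as higher, and as lower 2 of 7 of radial glia, 1 of 4 of astrocytes, 2 of 5 of microglia, 1 of 5 of endothelium, 2 of 5 of vessel wall and 3 of 4 of erythroid cells. Among the remaining lists, 1 of 4 markers of inhibitory neurons was lower than input and 1 higher than IgG RIP, and 2 of 5 of oligodendrocyte precursors and 1 of 3 of choroid plexus were lower than input.

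Of the 72 subunit genes, 64 passed the filter of 0.5 CPM in at least 3 libraries. *Kcne1*, *Kcne3*, *Kcng4*, *Kcnj1*, *Kcnj14*, *Kcnk15*, *Kcnk16* and *Kcnv2* did not, and *Kcnj14* had 0 counts in every library, below the limit of 3 counts. Together the 72 genes held 0.324% to 0.330% of protein-coding counts in CELF2-KI RIP, 0.239% to 0.289% in IgG RIP and 0.242% to 0.263% in input, so the CELF2-KI RIPs were above all 6 control libraries.

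Against both controls, 7 subunit genes were higher in CELF2-KI RIP and 5 were lower. The 7 were *Kcns2*, *Kcnk3*, *Kcnj10*, *Kcnk10*, *Kcnj12*, *Kcng3* and *Kcnk9*, which encode a modulatory subunit of voltage-gated channels, 3 two-pore channels, 2 inward rectifiers and a further modulatory subunit. The 5 were *Kcnt1*, *Kcnip3*, *Kcnip1*, *Kcnj8* and *Kcne1l*. The 7 were 10.9% of the 64 tested, beside 7.58% of all genes tested, and the 5 were 7.81%, beside 9.54%. Over IgG RIP alone 9 were higher and 6 lower, where 13.4% and 13.6% of all genes were called. Over input alone 17 were higher and 6 lower, where 14.6% and 15.5% of all genes were called. The counts by role and by seizure list below stand beside these same shares of all genes. The median log2 fold change of the 64 was -0.05 over IgG RIP and 0.27 over input, beside -0.06 and 0.19 for all genes tested. CELF2-KI RIP lay above all 6 control libraries for 20 of the 64, where 25.2% of all genes did, and below all 6 for 12, where 19.9% did. Both comparisons use the same CELF2-KI RIP libraries, so they are not independent of each other.

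**Figure D1:**
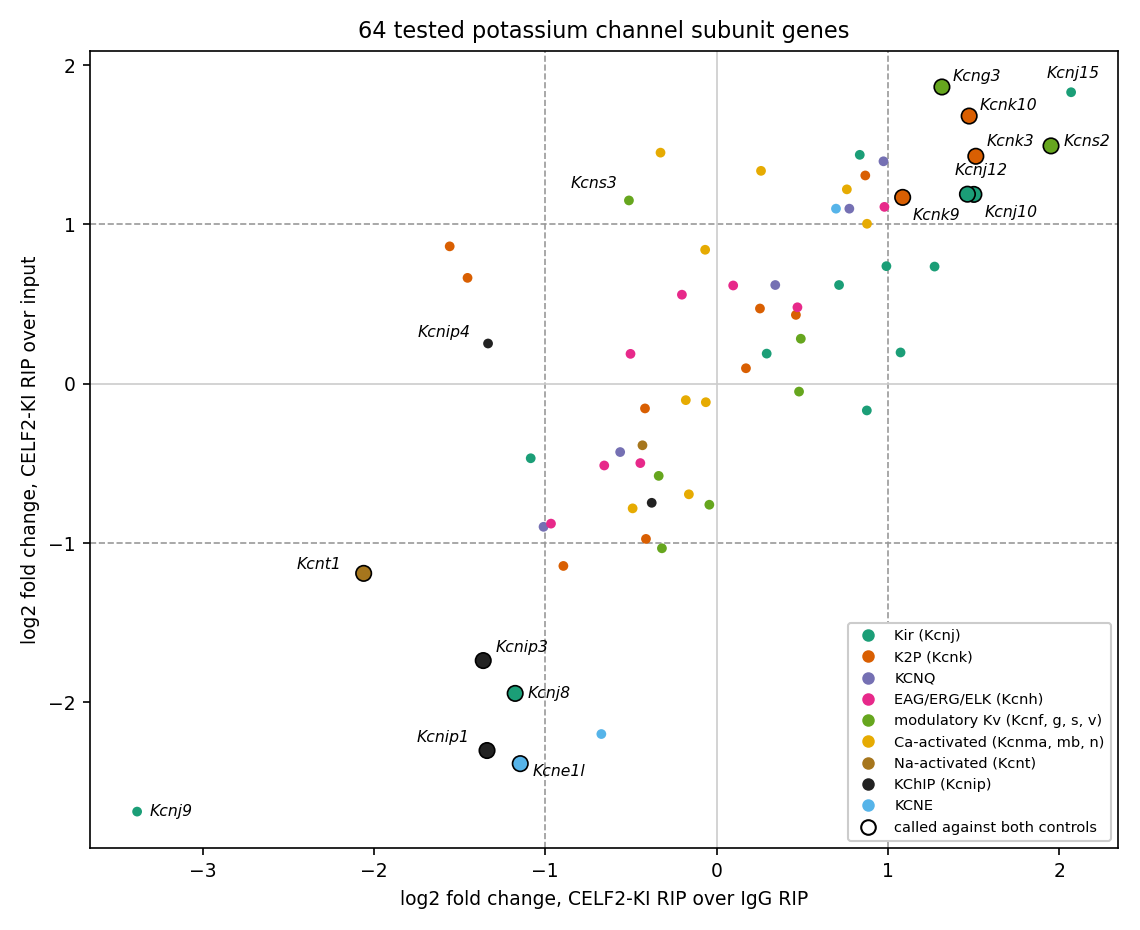
Log2 fold change of each of the 64 tested subunit genes, CELF2-KI RIP over IgG RIP on the horizontal axis and over input on the vertical axis, coloured by role, with dashed lines at 2-fold. Larger outlined points are the 7 genes called higher than both controls, at the upper right, and the 5 called lower, at the lower left; both axes share the CELF2-KI RIP libraries.

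The scaling of the libraries moved these counts. Centred by DESeq2's size factors, total counts or the upper quartile in place of TMM, the median of all genes over IgG RIP went from -0.06 to -0.12, -0.42 or -0.32, and over input from 0.19 to 0.05, -0.27 or -0.04. Members higher and lower than both controls were then 7 and 6, 2 and 8, or 4 and 7. Of all genes tested, 5.48% and 10.9%, 1.55% and 15.9%, or 3.4% and 13.5% were. Over IgG RIP the members were 9 and 7, 5 and 11, or 7 and 9, and over input 12 and 9, 3 and 15, or 6 and 11. *Kcns2* and *Kcnk10* on the higher side, and all 5 on the lower side, were called against both controls under each of these 3 scalings. All 3 moved the medians downward, which favours lower calls, so they put only the higher side to a test. Without IgG RIP replicate 1, 11 of 63 members tested were higher than both controls, beside 7.7% of all genes. Among those that joined were *Kcnh1*, *Kcnma1* and *Kcnj15*. *Kcnj15* had 9, 16 and 9 counts in CELF2-KI RIP and 1 in each IgG RIP left, below the limit of 3 counts. It passed the filter only through the CELF2-KI RIPs, the condition where it was high, so its call there is no support.

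All 12 members called against both controls were in the upper 2 of 3 classes of like size into which all tested genes were split by mean CPM. The highest class, above 39.4, held 16 members, of which 3 (18.8%) were higher than both controls, beside 16.4% of all genes in that class. There edgeR and DESeq2 each called 0 lower (1 by unadjusted p under 0.05), beside 6.46% of all genes. In the middle class, above 8.42 CPM, 4 of 28 (14.3%) were higher and 5 (17.9%) were lower, beside 5.17% and 13.6% of all genes there. In the lowest class edgeR called 0 of 20 members in either direction and DESeq2 also called 0, while 4 were higher and 3 lower by unadjusted p (under 0.05) in both comparisons. Of all genes in the lowest class, 1.20% were called higher and 8.57% lower.

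**Figure D2:**
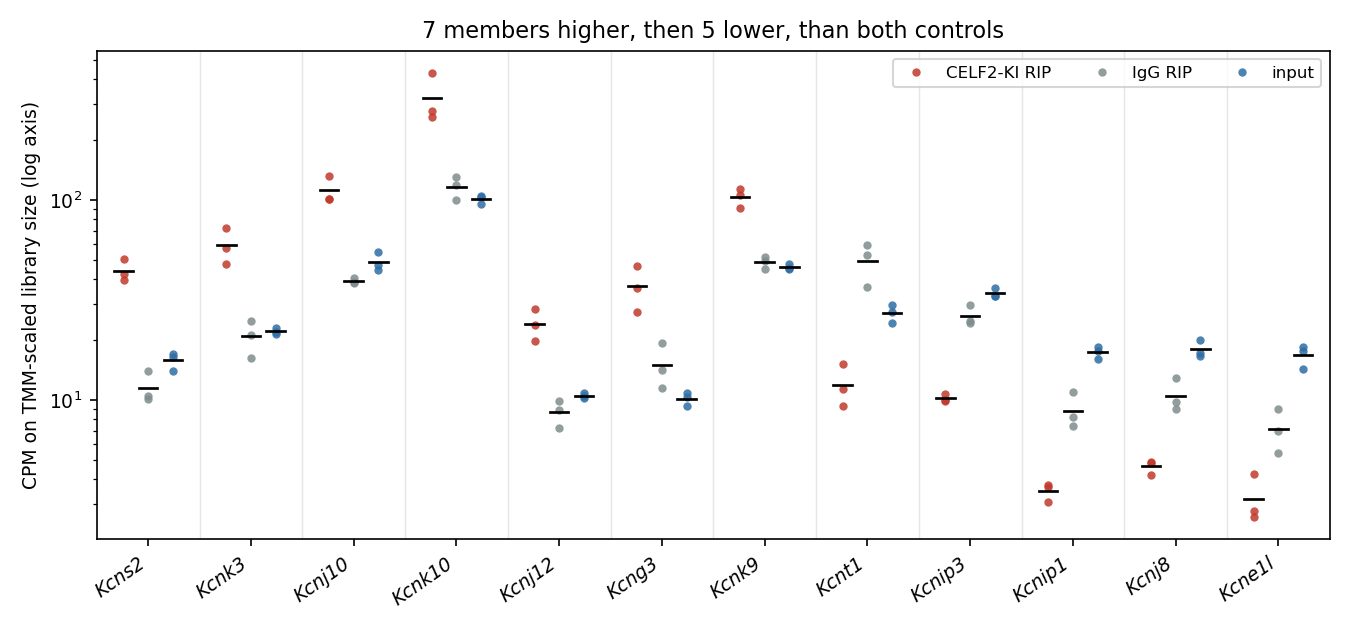
Level in every library (points, CPM, log axis) and mean (bar) of the 7 genes higher and the 5 genes lower in CELF2-KI RIP than both controls, 3 libraries per condition. For each of the 12 genes the 3 CELF2-KI RIP points lie on 1 side of all 6 control points, as for *Kcns2* at 39.7 to 50.4 against 10.1 to 17.0. The 12 genes were chosen by their calls in these same libraries, so this separation is not further support.

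Inward rectifiers pass potassium more easily into the cell than out and keep the resting voltage near that of potassium. Of 15 genes 13 were tested, and 4 were higher and 1 lower than IgG RIP, 3 higher and 1 lower than input. The group's median (log2) of 0.88 over IgG RIP and 0.62 over input stayed above 0 under the 3 other scalings. *Kcnj10* (chr1:172341210-172374085), the Kir4.1 channel of astrocytes and other glia, measured 101, 132 and 101 CPM in the 3 CELF2-KI RIPs, 40.7, 38.4 and 38.8 in the IgG RIPs and 54.6, 47.4 and 44.7 in the inputs. The groups did not overlap, and replicate 2 of CELF2-KI RIP was the highest. *Kcnj10* rose by 1.5 ± 0.14 (SE, FDR = 1.75e-05) on the log2 scale over IgG RIP and by 1.19 ± 0.14 (SE, FDR = 4.68e-05) over input. With curated transcripts alone its change was 0.85 over IgG RIP and 0.85 over input, both below 2-fold, and over input it was 0.72 with total counts and 0.95 with the upper quartile. Summed markers of astrocytes measured 159 to 187 CPM in CELF2-KI RIP, 94.2 to 149 in IgG RIP and 150 to 199 in input. The 4 markers did not share a direction over IgG RIP, where *Aqp4* was 1.69 (called higher), *Aldh1l1* 0.90, *Gfap* -0.90 and *Gjb6* -1.59 (called lower). Over input the 4 were 0.72, 0.46, -0.95 and -2.12, with *Gjb6* called lower. Their part in the level of *Kcnj10* was not tested.

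*Kcnj12* (chr11:61022564-61073269), the Kir2.2 channel, measured 19.7, 28.3 and 23.7 CPM across the CELF2-KI RIPs, against 7.20, 8.92 and 9.89 across the IgG RIPs and 10.8, 10.2 and 10.4 across the inputs. Every CELF2-KI RIP library was above every control library. *Kcnj12* rose by 1.46 ± 0.18 (SE, FDR = 8.87e-05) over IgG RIP and by 1.19 ± 0.17 (SE, FDR = 0.000221) over input. Both calls were lost on curated transcripts alone (1.59, FDR = 0.276 and 1.13, FDR = 0.43), and the change over input was below 2-fold with total counts (0.72) and the upper quartile (0.95). Another Kir2 channel, *Kcnj4* (Kir2.3), measured 60.3, 58.4 and 55.7 CPM in the 3 CELF2-KI RIPs, 28.9, 27.4 and 31.4 in the IgG RIPs and 37.6, 33.1 and 33.9 in the inputs. It was 0.99 ± 0.12 (SE, FDR = 6.46e-05) over IgG RIP, just short of 2-fold, and 0.74 ± 0.11 (SE, FDR = 0.000317) over input, again with no overlap between groups. Over IgG RIP it passed 2-fold without CELF2-KI RIP replicate 3 (1.02), IgG RIP replicate 3 (1.04), input replicate 1 (1.0) or input replicate 3 (1.0). *Kcnj2*, the Kir2.1 channel, named after its values were seen, was 1.27 ± 0.18 (SE, FDR = 0.000222) over IgG RIP, a call, and 0.74 ± 0.18 (SE, FDR = 0.00469) over input, which is below 2-fold. With total counts it was 0.90 over IgG RIP, also below 2-fold.

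*Kcnj11* encodes Kir6.2, the pore of the ATP-sensitive channel that links metabolism to excitability. It measured 29.4, 27.0 and 24.5 CPM across the CELF2-KI RIPs, against 13.1, 13.4 and 12 across the IgG RIPs and 23.0, 21.9 and 25.9 across the inputs. Only the IgG RIPs stood apart from the rest, and CELF2-KI RIP overlapped input. *Kcnj11* was 1.07 ± 0.14 (SE, FDR = 0.000107) over IgG RIP, just inside 2-fold, and 0.20 ± 0.13 (SE, FDR = 0.223) over input. Over IgG RIP it was 0.97 without input replicate 2, 0.71 with total counts, 0.81 with the upper quartile and 0.80 on curated transcripts alone, each below 2-fold. The other pore of that channel class, *Kcnj8* (chr6:142564837-142571614), encodes Kir6.1, which is known from pericytes and vessel wall. *Kcnj8* measured 4.88, 4.85 and 4.19 CPM in the 3 CELF2-KI RIPs, 8.95, 9.71 and 12.8 in the IgG RIPs and 16.6, 19.8 and 17.2 in the inputs, with no overlap between the 3 conditions. It fell by 1.18 ± 0.19 (SE, FDR = 0.00043) relative to IgG RIP and by 1.94 ± 0.19 (SE, FDR = 1.79e-05) relative to input. Summed markers of pericytes and vessel wall measured 189 to 231 CPM in CELF2-KI RIP, 198 to 304 in IgG RIP and 296 to 378 in input. Of the 5 markers 2, *Vtn* and *Acta2*, were called lower than both controls. Over IgG RIP 4 of the 5 were below 0 and 1 above, at 0.50, and over input 5 were below 0, with 3 called lower. Their part in the level of *Kcnj8* was not tested, and in the level of a bulk library, input included, fewer cells of a type and less RNA per cell cannot be told apart.

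The Kir3 channels open when G protein beta gamma subunits bind them and carry slow inhibition after GABA-B receptors. These genes were named after their values were seen. *Kcnj3* measured 49.3, 34.3 and 50.8 CPM across the CELF2-KI RIPs, against 37.7, 38.1 and 34.0 across the IgG RIPs and 43.4, 37.7 and 36.8 across the inputs, and was 0.29 over IgG RIP (95% interval -0.07 to 0.65). *Kcnj6* was 0.72 ± 0.15 (SE, FDR = 0.00263) over IgG RIP and 0.62 ± 0.15 (SE, FDR = 0.0049) over input. *Kcnj5* was 1.44 ± 0.27 (SE, FDR = 0.00107) over input, a call that total counts lost (0.96), and 0.84 ± 0.28 (SE, FDR = 0.0251) over IgG RIP. *Kcnj9* had 2, 13 and 2 counts in the CELF2-KI RIPs, 112, 0 and 100 in the IgG RIPs and 155, 320 and 177 in the inputs. IgG RIP replicate 2 stood apart from the other 2 IgG RIPs. With all 9 libraries *Kcnj9* was not called by edgeR, with a log2 fold change of -3.38 ± 1.14 (SE, FDR = 0.0281) over IgG RIP and -2.69 ± 1.12 (SE, FDR = 0.0605) over input. Without IgG RIP replicate 2 it was lower than both, by -3.94 (FDR = 0.000606) and -2.68 (FDR = 0.00249). The remaining tested genes of the group, *Kcnj13*, *Kcnj15* and *Kcnj16*, were not called against either control by edgeR, while DESeq2 called 2 genes of the group lower than IgG RIP where edgeR called 1. With the replicate number as a block, *Kcnj16* was lower in IgG RIP than input (-1.08, FDR = 0.00923).

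Two-pore channels carry the leak current that is open at rest. Of 14 genes 12 were tested, and 3 were higher than IgG RIP, while 4 were higher and 1 lower than input. The median was 0.21 over IgG RIP, which turned to -0.15 with total counts and -0.05 with the upper quartile, and 0.57 over input. *Kcnk10* (chr12:98429432-98578213), the TREK-2 channel opened by stretch, heat and lipids, measured 261, 431 and 278 CPM in the 3 CELF2-KI RIPs, 119, 130.3 and 100.1 in the IgG RIPs and 104, 103 and 95.2 in the inputs. CELF2-KI RIP was above all controls and replicate 2 was the highest of all. *Kcnk10* rose by 1.47 ± 0.19 (SE, FDR = 0.000106) over IgG RIP and by 1.68 ± 0.19 (SE, FDR = 4.23e-05) over input.

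The acid-sensitive TASK channels *Kcnk3* (TASK-1, chr5:30588170-30625270) and *Kcnk9* (TASK-3, chr15:72501873-72548614) were both higher than both controls. *Kcnk3* measured 47.7, 72.2 and 57.4 CPM across the CELF2-KI RIPs, against 16.2, 21.1 and 24.9 across the IgG RIPs and 22.9, 21.3 and 21.7 across the inputs. *Kcnk9* measured 90.9, 113 and 106 CPM in the 3 CELF2-KI RIPs, 45.1, 49.4 and 51.7 in the IgG RIPs and 45.5, 44.8 and 47.6 in the inputs. For neither gene did the CELF2-KI RIPs overlap a control library. *Kcnk3* rose by 1.51 ± 0.19 (SE, FDR = 0.000107) over IgG RIP and by 1.43 ± 0.19 (SE, FDR = 0.000117) over input, the latter 0.95 with total counts. *Kcnk9* rose by 1.09 ± 0.12 (SE, FDR = 3.96e-05) over IgG RIP and by 1.17 ± 0.12 (SE, FDR = 2.23e-05) over input, the smallest changes of the 7, and over IgG RIP it was 0.98 without input replicate 2, which is below 2-fold. It was also below 2-fold over IgG RIP with total counts (0.71), the upper quartile (0.82) and curated transcripts alone (0.91), and over input with total counts (0.70) and the upper quartile (0.93). *Kcnk2*, the TREK-1 channel and closest relative of TREK-2, is named after its values were seen. It measured 28.1, 16.3 and 18.1 CPM across the CELF2-KI RIPs, against 32.8, 38.8 and 44.7 across the IgG RIPs and 47.0, 49.2 and 41.9 across the inputs, below every control library. *Kcnk2* fell by 1.14 ± 0.21 (SE, FDR = 0.000856) relative to input, a call, and was -0.89 ± 0.21 (SE, FDR = 0.00438) over IgG RIP, which is below 2-fold. Its side of 2-fold turned on single libraries, as the change was -1.17 over IgG RIP without CELF2-KI RIP replicate 1, -1.01 without IgG RIP replicate 1, and -0.99 over input without CELF2-KI RIP replicate 2. *Kcnk6*, TWIK-2, named likewise, was 1.31 ± 0.34 (SE, FDR = 0.00696) over input and 0.87 ± 0.34 (SE, FDR = 0.0542) over IgG RIP, and its call over input was lost without CELF2-KI RIP replicate 2 or 3 or any 1 of the 3 inputs (FDR between 0.0182 and 0.036), and with DESeq2's size factors (FDR = 0.0114), total counts (FDR = 0.0557) or the upper quartile (FDR = 0.0206). The other 7 tested genes of the group, from -1.56 for *Kcnk18* to 0.46 for *Kcnk12* over IgG RIP, were not called against either control by edgeR. *Kcnk18* had 5, 4 and 0 counts in CELF2-KI RIP and 10, 10 and 8 in IgG RIP. It passed the filter only through the IgG RIPs, where it was high, so its value over IgG RIP carries no weight. DESeq2 called 2 genes of the group lower than input where edgeR called 1.

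KCNQ channels carry the M-current, a slow current that acetylcholine shuts off through muscarinic receptors. edgeR called 0 of the 5 genes over IgG RIP and DESeq2 also called 0, with 3 higher and 2 lower by unadjusted p (under 0.05). *Kcnq3*, a main subunit of the M-channel in cortex, measured 282, 302 and 316 CPM across the CELF2-KI RIPs, against 183, 172 and 171 across the IgG RIPs and 148, 143 and 128 across the inputs. The 3 conditions were fully separated, with CELF2-KI RIP highest and input lowest. *Kcnq3* was 0.78 ± 0.10 (SE, FDR = 0.000107) over IgG RIP, short of 2-fold, and 1.10 ± 0.10 (SE, FDR = 1.34e-05) over input, a call. Over input it was below 2-fold with DESeq2's size factors (0.96), total counts (0.63), the upper quartile (0.86), no filter (0.98) and curated transcripts alone (0.58), where its change over IgG RIP passed 2-fold (1.02, FDR = 0.00186). Predicted transcripts held 73.1% of its counts. *Kcnq5*, its partner in some M-channels, was 0.34 and 0.62, while *Kcnq1*, best known from heart and epithelia, was -1.01 and -0.90, each over IgG RIP and then over input. The group's median was 0.34 over IgG RIP, or -0.03 with total counts, and 0.62 over input.

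**Figure D3:**
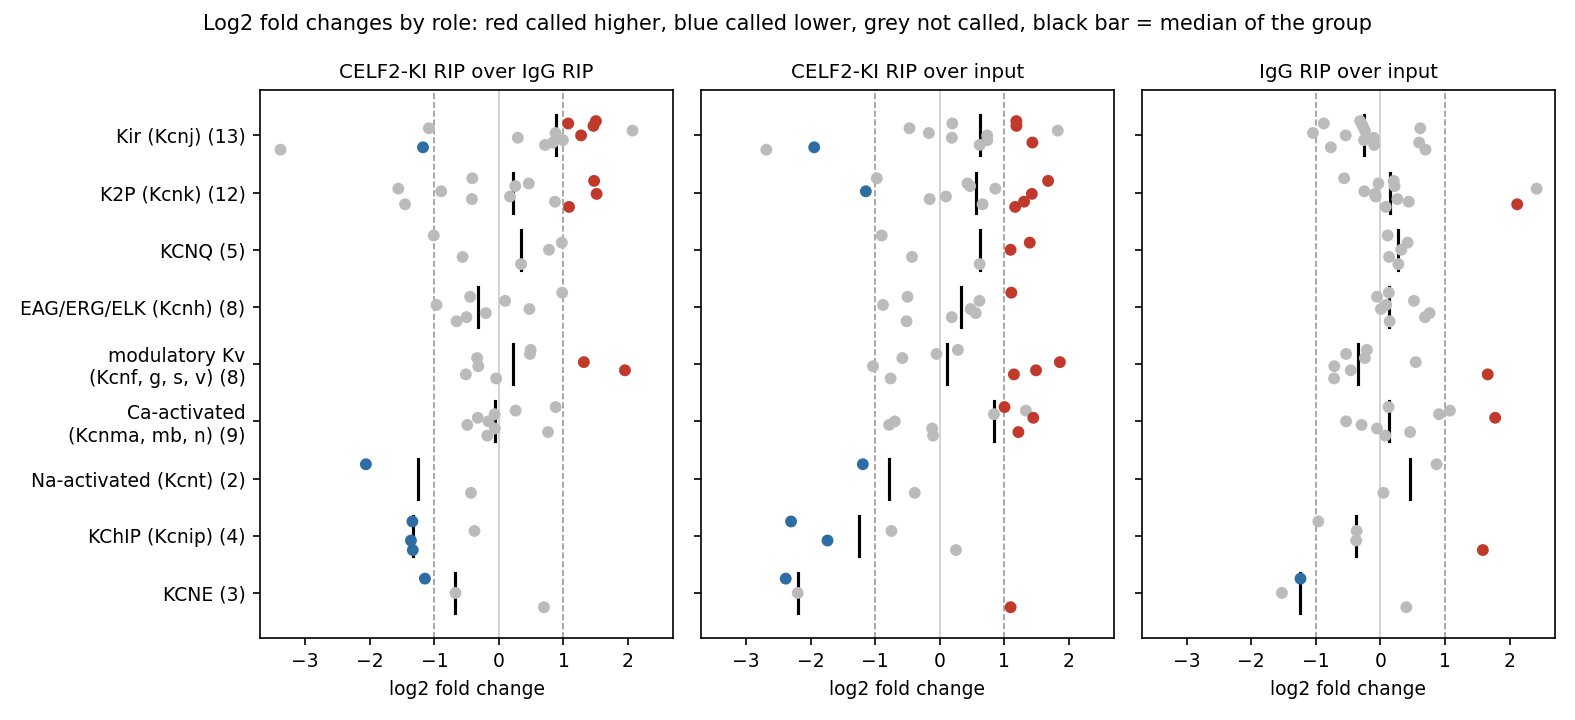
Log2 fold change of each tested subunit gene (points, coloured by call as in the title) by role, in the 3 comparisons, with the number tested in parentheses, a black bar at the group's median and dashed lines at 2-fold. Inward rectifiers have their median at 0.88 over IgG RIP, while KChIP proteins have theirs at -1.34.

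EAG, ERG and ELK channels, the *Kcnh* genes, are voltage-gated channels that shape firing and repolarization. Over IgG RIP edgeR called 0 of the 8, with 2 higher and 4 lower by unadjusted p (under 0.05), and DESeq2 called 1 lower, *Kcnh4*, which is named after its values were seen. edgeR called 1 higher than input. That was *Kcnh1*, the EAG1 channel, at 90.9, 97.6 and 88.1 CPM in the 3 CELF2-KI RIPs, 52.0, 53.0 and 35.3 in the IgG RIPs and 44.8, 44.6 and 38.7 in the inputs. The CELF2-KI RIPs were above all control libraries. *Kcnh1* was 0.98 ± 0.16 (SE, FDR = 0.000498) over IgG RIP, just outside 2-fold, and 1.11 ± 0.16 (SE, FDR = 0.000187) over input. It passed 2-fold over IgG RIP when IgG RIP replicate 1 (1.06), IgG RIP replicate 2 (1.09) or CELF2-KI RIP replicate 3 (1.01) was left out, and fell below 2-fold over input with DESeq2's size factors (0.97), total counts (0.65) and the upper quartile (0.87). The 2 members with the highest mean CPM were *Kcnh6* and *Kcnh7*, both of the ERG kind. *Kcnh6* measured 87.7, 106 and 73.7 CPM across the CELF2-KI RIPs, against 119, 115 and 75.0 across the IgG RIPs and 58.8, 67.7 and 55.4 across the inputs. *Kcnh7* measured 61.5, 56.1 and 69.9 CPM in the 3 CELF2-KI RIPs, 110.1, 89.5 and 65.9 in the IgG RIPs and 58.1, 54.1 and 52.5 in the inputs. Both overlapped IgG RIP, at -0.20 ± 0.19 (SE, FDR = 0.403) for *Kcnh6* and -0.50 ± 0.18 (SE, FDR = 0.0325) for *Kcnh7*. *Kcnh4*, an ELK channel, measured 18.2, 13.2 and 15.6 CPM across the CELF2-KI RIPs, against 30.2, 28.6 and 32.8 across the IgG RIPs and 27.8, 28.4 and 30.1 across the inputs, and was -0.97 ± 0.15 (SE, FDR = 0.00032) over IgG RIP and -0.88 ± 0.15 (SE, FDR = 0.00048) over input. Its calls turned on the scaling, since DESeq2's size factors put it at -1.03 and -1.01, and over IgG RIP it passed 2-fold without CELF2-KI RIP replicate 1 (-1.09), IgG RIP replicate 2 (-1.0) or input replicate 2 (-1.07). The median of the group was -0.32 over IgG RIP and 0.33 over input, the latter -0.12 with total counts.

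The modulatory subunits of *Kcnf*, *Kcng*, *Kcns* and *Kcnv* form no channel alone but join Kv2 subunits and change their gating. Of 10 genes 8 were tested, and 2 were higher than IgG RIP and 3 higher than input. *Kcns2* (chr15:34837355-34843407), the Kv9.2 subunit, measured 42.7, 50.4 and 39.7 CPM in the 3 CELF2-KI RIPs, 10.4, 14.0 and 10.1 in the IgG RIPs and 17.0, 16.3 and 14.0 in the inputs. The lowest CELF2-KI RIP library was above the highest control library, and *Kcns2* rose by 1.95 ± 0.17 (SE, FDR = 1.53e-05) over IgG RIP and by 1.49 ± 0.17 (SE, FDR = 4.3e-05) over input. *Kcng3* (chr17:83574023-83631995), the Kv6.3 subunit, measured 27.4, 46.7 and 36.4 CPM across the CELF2-KI RIPs, against 14.1, 19.1 and 11.4 across the IgG RIPs and 10.8, 10.3 and 9.28 across the inputs. Its groups did not overlap either, with IgG RIP between CELF2-KI RIP and input, and *Kcng3* rose by 1.32 ± 0.23 (SE, FDR = 0.000833) over IgG RIP and by 1.86 ± 0.23 (SE, FDR = 7.77e-05) over input. Predicted transcripts held 89.1% of its counts, and on curated transcripts alone it was not called (1.61, FDR = 0.249 and 1.53, FDR = 0.261). With total counts it was 0.93 over IgG RIP.

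The other modulatory subunits did not rise over both controls. *Kcns3*, the Kv9.3 subunit, measured 14.2, 23.4 and 23.5 CPM in the 3 CELF2-KI RIPs, 29.1, 36.2 and 21.9 in the IgG RIPs and 8.79, 8.69 and 10.0 in the inputs. It was highest in 2 of the 3 IgG RIPs and lowest in all inputs, at -0.51 ± 0.23 (SE, FDR = 0.0858) over IgG RIP and 1.15 ± 0.23 (SE, FDR = 0.00168) over input, the latter not called without input replicate 2 (1.0, FDR = 0.0148), with total counts (0.68), with the upper quartile (0.91) or on curated transcripts alone (0.54, FDR = 0.438). *Kcnf1*, the Kv5.1 subunit, measured 98.9, 55.4 and 83.5 CPM across the CELF2-KI RIPs, against 60.5, 57.7 and 51.0 across the IgG RIPs and 67.3, 63.0 and 65.3 across the inputs, and replicate 2 of CELF2-KI RIP was below all inputs while the other 2 were above. *Kcnf1* was 0.49 ± 0.19 (SE, FDR = 0.0447) over IgG RIP and 0.28 ± 0.18 (SE, FDR = 0.207) over input. Leaving out CELF2-KI RIP replicate 1 gave 0.30 and 0.09, leaving out replicate 2 gave 0.69 (FDR = 0.00157) and 0.49 (FDR = 0.00835), and with total counts it was 0.14 and -0.16. *Kcnv1*, the Kv8.1 subunit, was -0.04 ± 0.20 (SE, FDR = 0.874) over IgG RIP and -0.76 ± 0.20 (SE, FDR = 0.00694) over input, and all 3 inputs, at 45.2, 42.3 and 38.0 CPM, were above the 6 RIP libraries. *Kcns1*, the Kv9.1 subunit, was -1.03 ± 0.30 (SE, FDR = 0.0132) over input, and with the replicate number as a block it was called lower (-1.08, FDR = 0.00155). The group's median of 0.22 over IgG RIP became -0.15 with total counts and -0.04 with the upper quartile, and its median of 0.12 over input became -0.02, -0.33 and -0.12 with DESeq2's size factors, total counts and the upper quartile.

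Calcium-activated channels open when calcium enters the cell and end bursts of spikes. Over IgG RIP edgeR and DESeq2 each called 0 of the 9, with 2 higher and 1 lower by unadjusted p (under 0.05), and edgeR called 3 higher than input. The group's median was -0.07 over IgG RIP, or 0.08 and 0.11 without IgG RIP replicate 1 or 2, and 0.84 over input. *Kcnma1*, the pore of the BK channel, measured 459, 505 and 466 CPM in the 3 CELF2-KI RIPs, 305, 266 and 206 in the IgG RIPs and 258, 237 and 218 in the inputs. *Kcnn3*, the SK3 channel, measured 48.6, 73.9 and 59.3 CPM across the CELF2-KI RIPs, against 40.8, 35.3 and 31.2 across the IgG RIPs and 26.1, 27.0 and 24.9 across the inputs. Both were above all control libraries. *Kcnma1* was 0.88 ± 0.14 (SE, FDR = 0.000482) over IgG RIP and 1.0 ± 0.14 (SE, FDR = 0.00018) over input, at the 2-fold limit, and over input it was below 2-fold on curated transcripts alone (0.33, FDR = 0.014), with total counts (0.54), the upper quartile (0.77) or DESeq2's size factors (0.86), and without CELF2-KI RIP replicate 2 (0.96), input replicate 2 (0.89) or input replicate 3 (0.94). Over IgG RIP it passed 2-fold (1.01) without IgG RIP replicate 1. *Kcnn3* was 0.76 ± 0.17 (SE, FDR = 0.00314) over IgG RIP and 1.22 ± 0.17 (SE, FDR = 0.000141) over input, the latter 0.75 with total counts and 0.98 with the upper quartile. Of the BK beta subunits, which tune calcium sensitivity, *Kcnmb3* measured 1.76, 3.31 and 2.95 CPM in the 3 CELF2-KI RIPs, 3.82, 3.67 and 2.58 in the IgG RIPs and 1.06, 1.11 and 0.744 in the inputs. *Kcnmb3* was 1.45 ± 0.35 (SE, FDR = 0.00456) over input and -0.33 ± 0.35 (SE, FDR = 0.452) over IgG RIP, so it rose over input in both kinds of RIP. That call was lost without CELF2-KI RIP replicate 2 or 3 or any 1 of the 3 inputs, with an FDR between 0.0165 and 0.0237, and with total counts (0.97) or the upper quartile (FDR = 0.0125). *Kcnmb1* lies within the span of *Kcnip1* on chromosome 11. The counting's strand setting was not given in the sources used here, and whether transcripts of the 2 genes overlap was not checked. Reads of the 2 genes may therefore not be fully told apart. *Kcnmb1* and the other 5 genes, including *Kcnn1* and *Kcnn2*, were not called against either control by edgeR.

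*Kcnt1* (chr2:25863791-25918273) encodes Slack, a channel opened by sodium, and gain-of-function variants in it are a known cause of early epilepsy. *Kcnt1* measured 15.0, 9.32 and 11.3 CPM across the CELF2-KI RIPs, against 59.2, 53.0 and 36.6 across the IgG RIPs and 29.9, 27.4 and 24.1 across the inputs. The 3 conditions did not overlap, with IgG RIP highest and CELF2-KI RIP lowest. *Kcnt1* fell by 2.06 ± 0.23 (SE, FDR = 4.39e-05) relative to IgG RIP and by 1.19 ± 0.22 (SE, FDR = 0.00101) relative to input, and IgG RIP was 0.87 ± 0.21 (SE, FDR = 0.00969) above input. Without IgG RIP replicate 3 the last value passed 2-fold (1.05, FDR = 0.00154). Both sodium-activated genes were tested, and *Kcnt1* alone was called. Its counts were spread over 23 transcripts, of which predicted ones held 75.8%, and on curated transcripts alone the changes were -0.95 (FDR = 0.714) and -2.81 (FDR = 0.275), not called. The related *Kcnt2* measured 20.1, 12.4 and 17.0 CPM in the 3 CELF2-KI RIPs, 26.7, 23.7 and 16.3 in the IgG RIPs and 23.0, 23.3 and 18.3 in the inputs. *Kcnt2* overlapped both controls, at -0.43 ± 0.23 (SE, FDR = 0.133) over IgG RIP and -0.39 ± 0.22 (SE, FDR = 0.16) over input.

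KChIP proteins bind calcium and the inner side of Kv4 channels, whose current they raise, and KChIP3 is also known as the transcription repressor DREAM. Of the 4 genes 3 were lower than IgG RIP and 2 of these also lower than input. The group's median was -1.34 over IgG RIP and -1.24 over input. It was below 0 under every scaling tried, but the other scalings all moved changes downward and so did not test this. *Kcnip3* (chr2:127456498-127522094) measured 10.0, 10.7 and 9.91 CPM across the CELF2-KI RIPs, against 29.7, 24.2 and 24.8 across the IgG RIPs and 36.3, 32.9 and 32.9 across the inputs. *Kcnip1* (chr11:33629339-33993348) measured 3.68, 3.08 and 3.75 CPM in the 3 CELF2-KI RIPs, 10.9, 7.43 and 8.17 in the IgG RIPs and 17.6, 16.0 and 18.3 in the inputs. For both genes CELF2-KI RIP was lowest, IgG RIP in between and input highest, with no overlap. *Kcnip3* fell by 1.36 ± 0.14 (SE, FDR = 2.66e-05) relative to IgG RIP and by 1.74 ± 0.14 (SE, FDR = 6.06e-06) relative to input. *Kcnip1* fell by 1.34 ± 0.20 (SE, FDR = 0.000245) relative to IgG RIP and by 2.30 ± 0.19 (SE, FDR = 9.09e-06) relative to input, and on curated transcripts alone it was -0.86 (FDR = 0.578) and -2.08 (FDR = 0.179). The limit given above for reads of *Kcnmb1* holds for *Kcnip1* too.

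*Kcnip4*, named after its values were seen, differed from its relatives. It measured 5.36, 7.62 and 5.80 CPM across the CELF2-KI RIPs, against 16.0, 19.7 and 11.8 across the IgG RIPs and 5.32, 5.23 and 5.22 across the inputs. The IgG RIPs were above the other 6 libraries, and the CELF2-KI RIPs were above the inputs by a small margin. *Kcnip4* fell by 1.33 ± 0.22 (SE, FDR = 0.000584) relative to IgG RIP. Over input it was 0.25, with a 95% interval of -0.24 to 0.74, and IgG RIP was 1.59 ± 0.22 (SE, FDR = 0.000564) over input. *Kcnip2* measured 19.9, 18.5 and 17.2 CPM in the 3 CELF2-KI RIPs, 19.2, 29.1 and 24.2 in the IgG RIPs and 32.7, 28.8 and 31.9 in the inputs. It was -0.38 ± 0.17 (SE, FDR = 0.0764) over IgG RIP and -0.75 ± 0.16 (SE, FDR = 0.00272) over input, so neither change reached 2-fold.

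KCNE proteins are small membrane proteins that join KCNQ and other channels. Of 5 genes 3 were tested, of which 1 was lower than IgG RIP, and 1 higher and 1 lower than input. The median was -0.67 over IgG RIP, or 0.10 without IgG RIP replicate 2, and -2.20 over input. *Kcne1l* (chrX:142304753-142306198), also called *Kcne5*, measured 4.24, 2.77 and 2.59 CPM across the CELF2-KI RIPs, against 5.44, 9.02 and 6.95 across the IgG RIPs and 18.3, 17.6 and 14.3 across the inputs, with no overlap between the conditions. *Kcne1l* fell by 1.15 ± 0.26 (SE, FDR = 0.00368) relative to IgG RIP and by 2.38 ± 0.26 (SE, FDR = 3.37e-05) relative to input. The call over IgG RIP was lost without CELF2-KI RIP replicate 2 (FDR = 0.0173), CELF2-KI RIP replicate 3 (FDR = 0.0175) or IgG RIP replicate 2 (FDR = 0.0135). *Kcne4* measured 4.08, 3.77 and 4.73 CPM in the 3 CELF2-KI RIPs, 2.0, 3.37 and 2.44 in the IgG RIPs and 1.57, 1.88 and 2.41 in the inputs. Its CELF2-KI RIPs were above all controls, at 0.70 ± 0.31 (SE, FDR = 0.0762) over IgG RIP and 1.10 ± 0.30 (SE, FDR = 0.00871) over input, but the call over input was lost in each of the 6 fits that left out a CELF2-KI RIP or input library, with an FDR between 0.0137 and 0.0549, with the replicate number as a block (1.12, FDR = 0.0127), and with DESeq2's size factors (0.96), total counts (0.64) or the upper quartile (0.86). *Kcne2*, known from choroid plexus, is named after its values were seen. It measured 0.4, 0.616 and 0.625 CPM across the CELF2-KI RIPs, against 0.188, 1.68 and 0.86 across the IgG RIPs and 1.48, 3.37 and 2.7 across the inputs, at -2.20 ± 0.65 (SE, FDR = 0.0138) over input, and with the block it was called lower (-2.17, FDR = 0.00638). Summed markers of choroid plexus were 33.5 to 68.3 CPM in CELF2-KI RIP, 44.8 to 150 in IgG RIP and 165 to 458 in input, and their part in the level of *Kcne2* was not tested.

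Between IgG RIP and input, 4 of the 64 genes were called higher in IgG RIP and 1 lower, where 6.79% and 5.0% of all genes were called. By unadjusted p (under 0.05) 14 were higher and 15 lower, and the median change was 0.06. Beside *Kcns3*, at 1.66 ± 0.23 (SE, FDR = 0.000621), *Kcnip4* and *Kcnmb3*, at 1.78 ± 0.35 (SE, FDR = 0.00317), the higher genes included *Kcnk7*, a two-pore subunit that is silent when expressed alone. *Kcnk7* measured 1.20, 1.0 and 0.446 CPM in the 3 CELF2-KI RIPs, 2.25, 3.47 and 1.65 in the IgG RIPs and 0.413, 0.661 and 0.598 in the inputs, with the IgG RIPs above all others. *Kcnk7* was 2.12 ± 0.46 (SE, FDR = 0.0052) over input in IgG RIP, a call that was lost with the replicate number as a block (2.06, FDR = 0.0113) and without any 1 of IgG RIP replicate 1 or 2 or the 3 inputs. *Kcnmb3* was likewise not called in the fits without those libraries, with an FDR between 0.0106 and 0.0189. *Kcne1l* was the lower gene, at -1.24 ± 0.24 (SE, FDR = 0.00316), and was not called without IgG RIP replicate 1 (-1.07, FDR = 0.0127), input replicate 1 (-1.18, FDR = 0.0167) or input replicate 2 (-1.21, FDR = 0.0164).

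The study's lists of genes linked to seizures take their names from outside these libraries. The paper describes the lists as overlaps of those names with genes of its own comparison, so they are not wholly independent of these data. Tier 1 held 8 of the subunit genes and tier 2 held 11. In tier 1 *Kcnj10* was higher and *Kcnt1* lower than both controls (12.5% each), where 7.58% and 9.54% of all genes tested were called. Over IgG RIP 2 were higher (*Kcnj10*, *Kcnj11*) and 2 lower (*Kcnt1*, *Kcnip4*), and over input 4 were higher, among them *Kcnj10*, *Kcnh1* and *Kcnq3*, and 1 was lower. The median change of the 8 was 0.87 over IgG RIP and 0.68 over input. In tier 2 edgeR called 0 of the 11 over IgG RIP and DESeq2 also called 0, with 5 higher and 3 lower by unadjusted p (under 0.05), and edgeR called *Kcnma1* higher than input. The medians of tier 2 were 0.26 and 0.48.

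**Figure D4:**
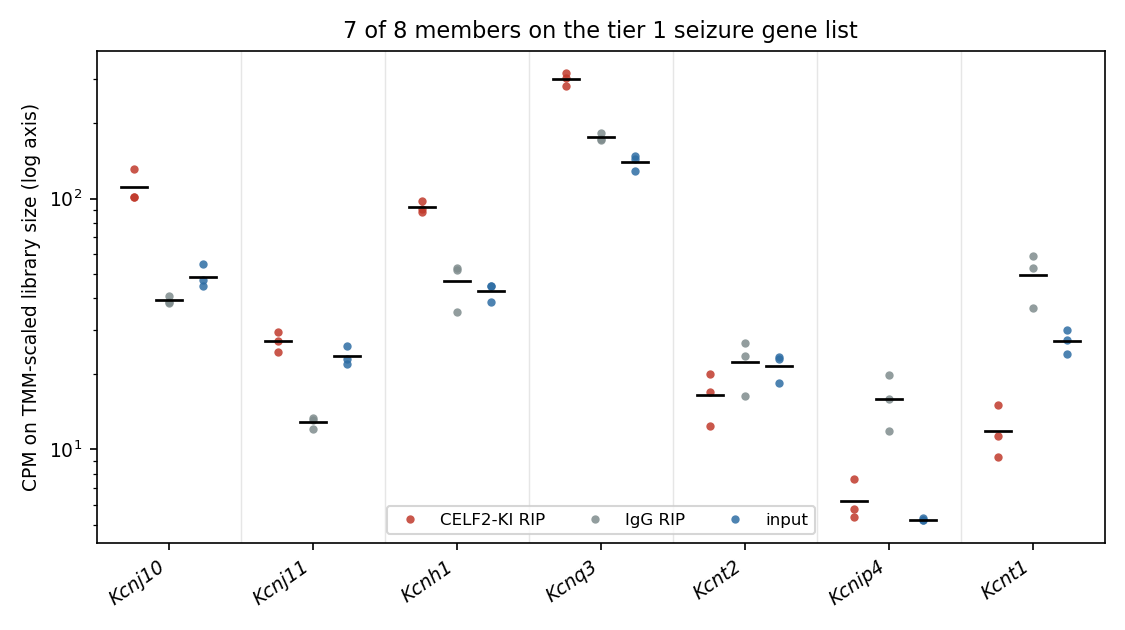
Level in every library (points, CPM, log axis) and mean (bar) of 7 of the 8 subunit genes on the tier 1 list, ordered by their change over IgG RIP, 3 libraries per condition. *Kcnj10* at the left is above both controls and *Kcnt1* at the right, at 9.32 to 15.0 in CELF2-KI RIP, is below both.

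The share of a gene's counts on its separate transcripts is given as a description, with no test. *Kcnma1* had 51 transcripts in the table, and the one with most counts, the predicted XM_006518610.3, held 25.2% to 42.4% in CELF2-KI RIP, 1.11% to 9.98% in IgG RIP and 38.9% to 45.4% in input. The IgG RIPs stood below all other libraries. For *Kcns3*, the predicted XM_006515082.3 held 47.8% to 59.6% in CELF2-KI RIP, 72.2% to 90.7% in IgG RIP and 45.1% to 51.3% in input. For *Kcnip4*, the curated NM_001199244.1 held 61% to 70.6% in CELF2-KI RIP, 68.8% to 94.1% in IgG RIP and 32.5% to 42.7% in input. Here the inputs stood below both RIPs. The curated transcript of *Kcnj10* held 65.7% to 69.5% in CELF2-KI RIP, 88.8% to 100% in IgG RIP and 65.1% to 99.8% in input, so the inputs reached from the lowest values to nearly the highest. Counts on overlapping transcripts of 1 gene are estimates that share reads, and the error of that split is not in the table.

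**Figure D5:**
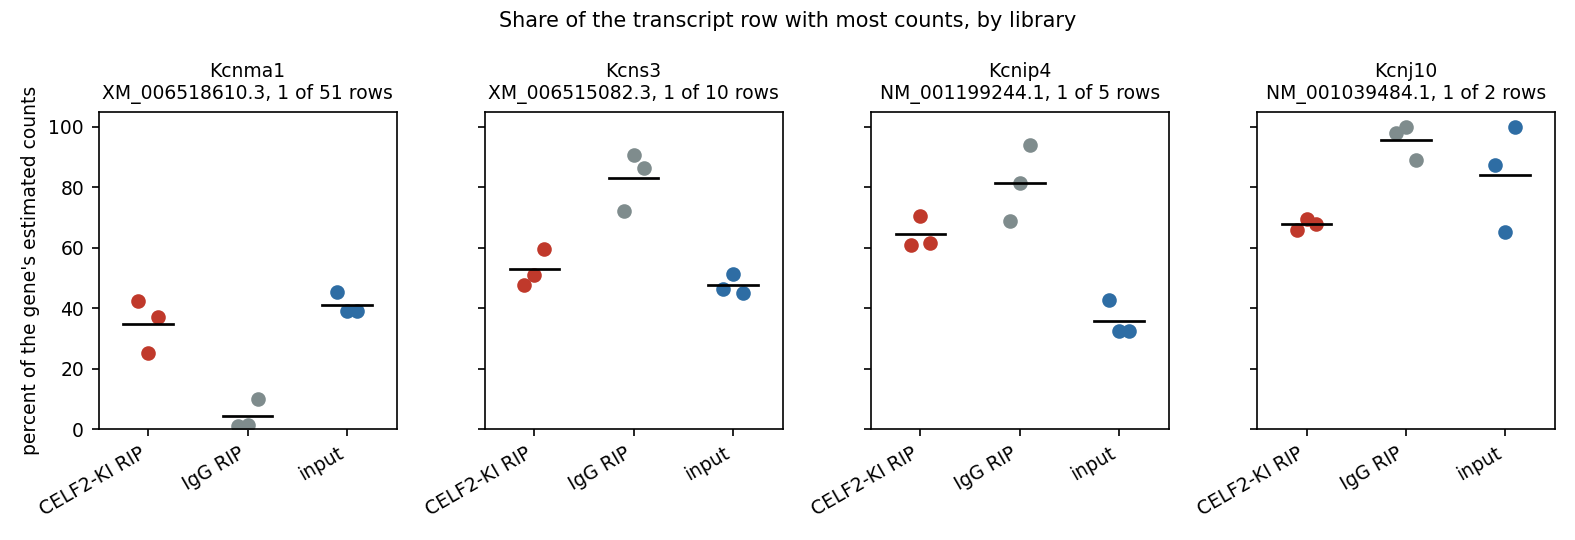
Share of a gene's estimated counts (percent) on the transcript with most counts, for *Kcnma1*, *Kcns3*, *Kcnip4* and *Kcnj10* in each library (points) with the mean (bar), 3 libraries per condition. The named *Kcnma1* transcript lies at 1.11% to 9.98% in IgG RIP and at 25.2% or more in the other 6 libraries.

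Genes that work with these channels were taken from a list of 33, of which 32 were tested. Over IgG RIP 9 were higher and 5 lower, where 13.4% and 13.6% of all genes were called. Over input 6 were higher and 3 lower, where 14.6% and 15.5% of all genes were called. Against both controls 4 (*Amigo1*, *Gabbr1*, *Gnb1*, *Kctd12*) were higher and 3 (*Csnk2b*, *Gnb2*, *Gng3*) lower. These were 12.5% and 9.38% of the 32, beside 7.58% and 9.54% of all genes. The medians of the 32 were 0.44 over IgG RIP and 0.46 over input. Among those with the highest mean CPM were *Ank2*, *Ank3*, *Gabbr1*, *Gnb1* and *Calm3*. *Gabbr1*, a subunit of the GABA-B receptor that opens Kir3 channels, measured 1730.0, 2458 and 1719 CPM across the CELF2-KI RIPs, against 568, 591 and 571 across the IgG RIPs and 919.7, 886 and 958 across the inputs. *Gnb1*, the G protein beta subunit that carries the signal, measured 1454, 1992 and 1705 CPM in the 3 CELF2-KI RIPs, 426, 449 and 571 in the IgG RIPs and 646, 639.6 and 727 in the inputs. Both had every CELF2-KI RIP above every control, with 1.77 ± 0.14 (SE, FDR = 1.11e-05) and 1.83 ± 0.15 (SE, FDR = 1.16e-05) over IgG RIP. *Ank3*, the ankyrin that holds KCNQ channels at the axon initial segment, was -1.68 ± 0.16 (SE, FDR = 1.84e-05) over IgG RIP and 0.13 ± 0.15 (SE, FDR = 0.469) over input, and *Ank2* was -2.08 ± 0.15 (SE, FDR = 8.52e-06) and 0.24 ± 0.15 (SE, FDR = 0.192). Both ankyrins were highest in the 3 IgG RIPs. *Calm3*, a calmodulin gene whose protein serves SK and KCNQ channels, was 0.94 over IgG RIP, below 2-fold.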

How the data were processed

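RIP-seq libraries from 9 samples (3 CELF2-KI RIPs, 3 IgG RIPs, 3 inputs) were analysed. The authors deposited estimated counts per transcript, which the submitters' processing notes tie to FastQC 0.11.9, fastp 0.23.4, Ribodetector 0.3.1, kallisto 0.51.1, edgeR 4.4.0 and DESeq2 1.46.0, with mm10 as the build. The strand setting of the counting was not given in the sources used here. Of 107384 transcripts, 86722 were matched by RefSeq accession, ignoring the version, to genes of GRCm38.p6, from which gene positions were also taken. Estimated counts were summed per protein-coding gene and rounded to whole numbers.

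All 9 libraries were fitted with 1 mean per condition by edgeR 4.0.16 (quasi-likelihood test, TMM, R 4.3.3) on the 15267 genes that reached 0.5 CPM in 3 or more libraries. A call needed an FDR under 0.01 and a 2-fold change. SE is the standard error of the log2 fold change, with 3 libraries per condition, and p-values measure the spread between these libraries. Estimates share reads between transcripts, so precision from depth covers counting error only. Alternatives were DESeq2 1.42.0 (its size factors and its Wald test), total counts, the upper quartile, glmTreat against 2-fold, no filter, a filter of 1 CPM, curated transcripts alone, a replicate block and leaving out each library.

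Same-numbered libraries deviated together for CELF2-KI RIP and input (correlations of 0.110, 0.117 and 0.122 over genes) but not for CELF2-KI RIP and IgG RIP (-0.056, 0.043 and 0.014) or IgG RIP and input (0.030, 0.065 and 0.038). The subunit genes and lists were chosen with earlier results of these data known. Named genes were those called against both controls, the 2 with the highest mean CPM in each role, the 3 with the largest rise and the 3 with the largest fall among those called in IgG RIP over input, those called in opposite directions against the controls (none were), and the 2 nearest to 2-fold over IgG RIP on each side. Others were named after their values were seen, and most are marked so. Given with values but without that mark are *Kcnj15*, *Kcnj16*, *Kcnk12*, *Kcnk18*, *Kcnq1*, *Kcnq5* and *Kcns1*. The values of some genes that this rule names are not reported here.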

Additional observations from a re-analysis of the deposited data

How the results depend on the processing

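The counts of subunit genes called moved by over 1.5 times under the following settings. With total counts, 5 were higher and 11 lower than IgG RIP, 3 higher and 15 lower than input, 2 higher and 8 lower than both, and 2 lower in IgG RIP than input. With the upper quartile, 6 were higher and 11 lower than input and 4 higher than both. With DESeq2's size factors, 2 were lower in IgG RIP than input, and with its Wald test 3 were, with 10 lower than input. Under edgeR's glmTreat against 2-fold, 2 were higher and 1 lower than IgG RIP and 3 higher than input, while 0 were higher and 0 lower than both (6 and 2 at an unadjusted p under 0.05, and 7 and 6 by DESeq2) and 0 were higher and 0 lower in IgG RIP than input (5 and 0 unadjusted, 4 and 3 by DESeq2). On curated transcripts alone, 5 were higher than IgG RIP, 6 higher than input, 3 higher than both, and 1 higher and 0 lower in IgG RIP than input. With the replicate block, 2 were lower in IgG RIP than input, and the block changed no call of a subunit gene beyond the 5 given above. Leaving out 1 library at a time gave 7 to 13 higher and 5 to 8 lower than IgG RIP, 12 to 19 higher and 5 to 8 lower than input, 6 to 11 higher and 4 to 6 lower than both, and 2 to 7 higher and 0 to 1 lower in IgG RIP than input. Of all genes, 1157 were higher and 1457 lower than both, against 237 and 2420 with total counts, 519 higher with the upper quartile, 121 and 454 under glmTreat and 749 higher on curated transcripts. The cause of these shifts was not tested. No direction of a called gene was reversed. Depth limits the scarcer genes, where 3 counts are worth 0.0331 to 0.297 CPM.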
